A study of Mus musculus with 6 samples.

Results

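The alarmin and type 2 cytokine axis was followed in the aged mouse lung through 9 genes: the cytokines Il33, Tslp and Il7, the receptor chains Il1rl1, Il7r and Il18r1, and the effector cytokines Il4, Il13 and Il5. The members were taken by gene symbol, and all 9 were found among the 31054 features of the deposited matrices. They were measured by droplet-based single-cell RNA sequencing in 6 lungs of male C57BL/6 mice aged 21 months. The 3 mice labelled p16-DTR carried p16-CreERT2 and R26-LSL-DTR, in which Cre driven by the p16 promoter opens a diphtheria toxin receptor cassette after tamoxifen. The 3 control mice carried p16-CreERT2 without that cassette. Tamoxifen was given to both groups on 5 days, diphtheria toxin on 5 days from 2 weeks later, and lungs were taken after a further 2 weeks. For each lung, 20000 CD45- and 9000 CD45+ sorted cells were mixed into 1 library. This set the ratio of immune to other cells in the mix, not among the cells recovered. Both groups received the toxin.

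Alarmins are cytokines that barrier cells release on damage or stress. IL-33 binds the ST2 receptor, encoded by Il1rl1, together with the shared co-receptor Il1rap. TSLP binds Crlf2 paired with the IL-7 receptor alpha chain, encoded by Il7r, which also serves IL-7, a survival factor of lymphocytes. In the lung, type 2 innate lymphoid cells, basophils, T helper 2 cells and ST2-bearing regulatory T cells respond to these signals, and the first 3 of these make IL-4, IL-5 or IL-13. IL-18 uses Il18r1 with Il18rap and drives the interferon-gamma arm of T and natural killer cells.

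The libraries held 13025 to 16884 retained cells with medians of 17091 to 18495.5 UMIs (unique molecular identifiers, each counting 1 captured transcript) per cell. Of 91156 retained cells, 79073 fell into 35 classes gated on marker genes that include none of the 9 members. Another 3188 cells met the panels of more than 1 lineage. The other 8895 were placed in no class, because they met no class gate or tied between classes. Pairs of libraries shared 59 to 94 cell barcodes. Endothelial, epithelial, stromal and immune classes were all found. Mast cells and eosinophils also had gates, but no retained cell was placed in either class, so neither enters the results below. Cdkn2a, the gene that encodes p16, was higher, not lower, in the p16-DTR-labelled libraries. It stood at 7.10, 8.57 and 7.31 CPM (UMIs per 1000000 UMIs) there and at 1.15, 2.59 and 2.84 in the control libraries. The edgeR log2 fold change was 1.86 (SE 0.324, adjusted p = 0.126 over all cells), and Cdkn2a was called higher in 9 of the 18 classes in which it was tested. Whether the higher Cdkn2a bears on the labels was not tested. Directions below are those of the p16-DTR-labelled libraries against the control libraries.

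Levels are CPM over a whole library or over a class within a library. The 9 genes were divided between stromal or epithelial sources and immune receivers. The leading class by mean level over the 6 libraries was the alveolar type 2 cell for Il33, the pericyte for Tslp, the lymphatic endothelium for Il7, the type 2 innate lymphoid cell for Il1rl1 and Il5, the basophil for Il4 and Il13, and the gamma-delta T cell for Il7r and Il18r1. Il18r1 was the exception to the division, since alveolar type 1 cells (515.9 to 796), mesothelium (394.5 to 651) and ciliated cells (304 to 402.5) stood within the range of the T cell classes. The 9 leading classes were the same when 1 more marker was needed to enter a class. For T cell classes, gamma-delta T cells among them, that marker was of the general T cell panel, and the split into classes stayed the same.

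**Figure D1:**
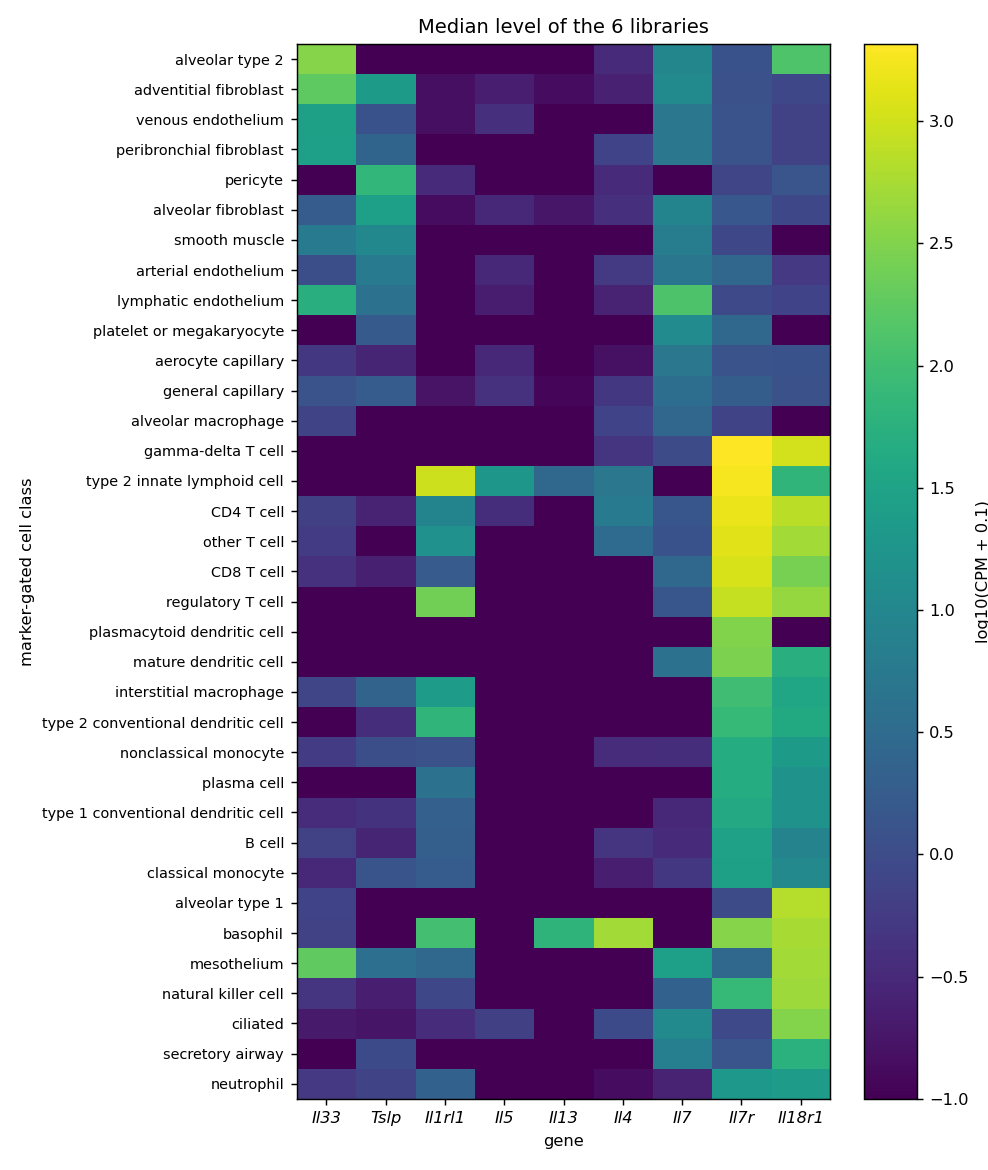
Median level of each of the 9 genes (columns) over the 6 libraries in each of the 35 marker-gated classes (rows), coloured as log10(CPM + 0.1). Il33, Tslp and Il7 are bright in stromal, epithelial and lymphatic rows, the receptor chains in lymphoid rows, and Il4 and Il13 are brightest in the basophil row.

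Over all cells, none of the 9 members passed the edgeR test at an adjusted p of 0.05, as none of the 21630 genes tested did (0%). At an unadjusted p under 0.05, 3 of 9 members differed, with Il1rl1 higher and Il33 and Tslp lower, against 23.3% of all genes. DESeq2 called 2 members, Il1rl1 and Il33, against 12.8% of all genes. The same 3 members had groups that did not overlap, against 31.1% of all genes, so their share was close to the background. In these sums, fewer cells of a type and less RNA per cell cannot be told apart. Gated immune cells were a larger share of gated cells in every p16-DTR-labelled library than in every control. The part of this in the sums over all cells was not tested.

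**Figure D2:**
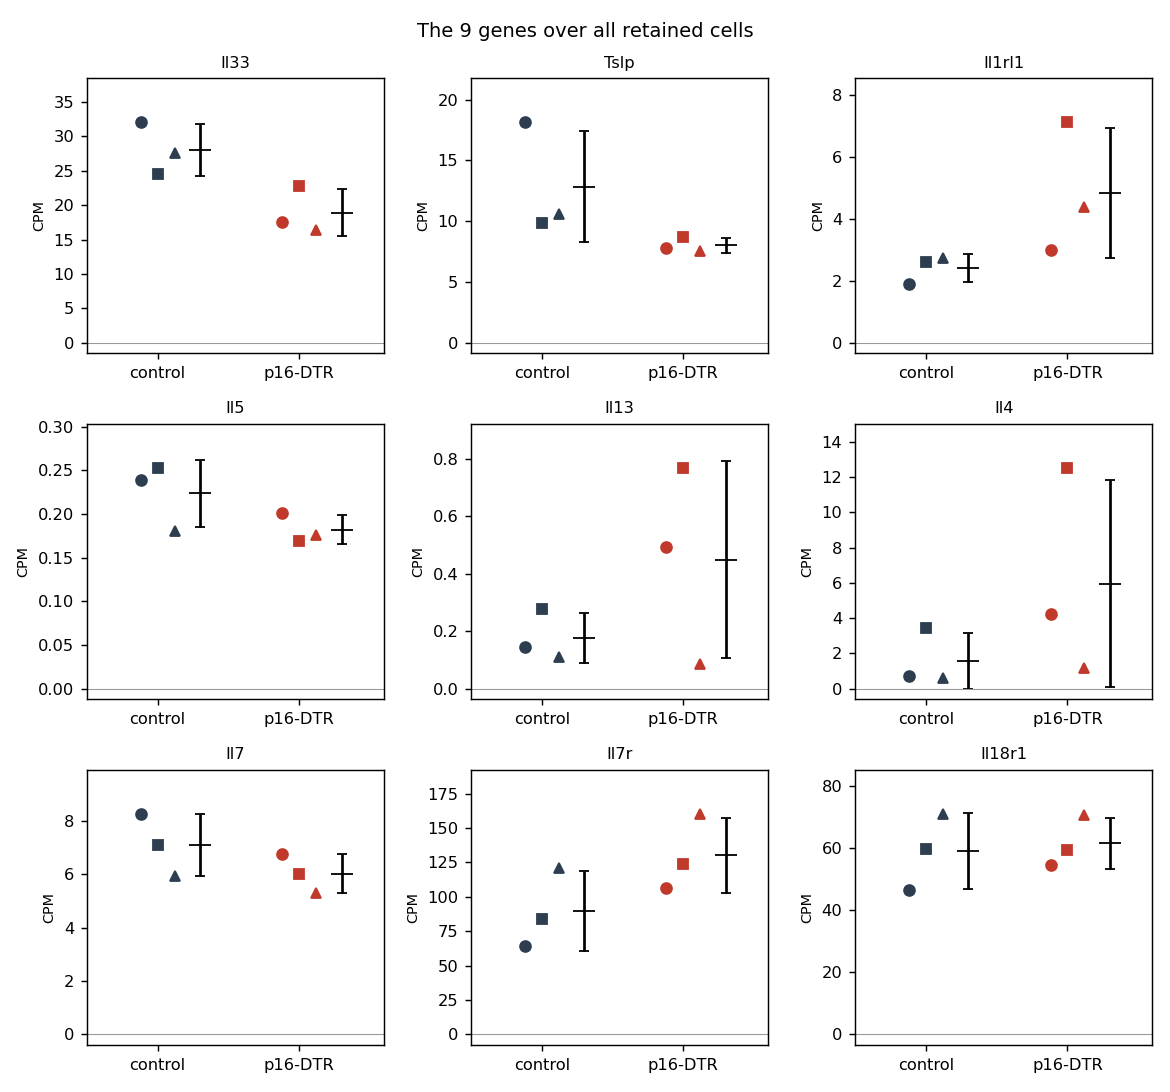
CPM over all retained cells for each of the 9 genes, with 1 point per library (circle, square and triangle for replicates 1, 2 and 3) and the mean ± SD of 3 libraries beside them. Il33 and Tslp lie lower and Il1rl1 higher in every p16-DTR-labelled library than in every control library, while the other 6 genes overlap.

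Il33, the nuclear alarmin of the IL-1 family, lay on chromosome 19 (GRCm38, 29925114 to 29960718, plus strand). Over all cells it stood at 17.5, 22.8 and 16.4 CPM in the p16-DTR-labelled libraries and at 32.0, 24.5 and 27.6 in the control libraries. All 3 libraries labelled p16-DTR were below all controls, and the edgeR log2 fold change was -0.52 (SE 0.151, adjusted p = 0.148). Adventitial fibroblasts, which lie in the cuffs around vessels and airways, held 46.6% of the 42589 Il33 UMIs (39.1% to 61.9% by library), and alveolar type 2 cells, the surfactant-making epithelium, held 26.2% (12.5% to 36.4%). Of the CPM of a whole library, the adventitial class supplied 7.67 ± 1.13 (SD, n = 3) in the p16-DTR-labelled libraries and 13.9 ± 5.30 in the controls. The alveolar type 2 class supplied 6.21 ± 1.84 and 6.38 ± 2.06. Of the mean difference of -9.15 CPM over all cells, -6.21 thus lay in adventitial fibroblasts, whose supply was highest in control replicate 1, at 19.8. Without that library, -3.24 of -7.16 CPM lay in them.

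Control replicate 1 held 1241 adventitial and 4816 alveolar fibroblasts, against 388 to 689 and 1938 to 3025 in the other 5 libraries. Adventitial fibroblasts made up 11.2% of its gated non-immune cells, and 4.71% to 6.86% in the other libraries. Without that library the Il33 log2 fold change over all cells was -0.41 (edgeR adjusted p = 0.221), and without each other library in turn it was -0.43 to -0.67.

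Within adventitial fibroblasts, Il33 stood at 138.6, 147 and 169 CPM in the p16-DTR-labelled libraries and at 183, 179 and 186 in the controls. The groups did not overlap, and the 3 controls lay close together. The edgeR log2 fold change was -0.27 (SE 0.075, adjusted p = 0.146), which missed the threshold. The summed level of the 8 markers that define the class was also lower, at 11144 to 13186 in the p16-DTR-labelled libraries against 13258 to 14158 in the controls, and its part in the result was not tested.

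Within alveolar type 2 cells Il33 stood at 349.6, 459.9 and 317 in the p16-DTR-labelled libraries and at 294, 331 and 355.5 in the controls. The groups overlapped, and the difference had the opposite sign (log2 fold change 0.26, SE 0.126, edgeR adjusted p = 0.450). Mesothelium, the outer lining of the lung, ranged from 88.4 to 296 with no order between the groups. Venous endothelium ranged from 23.8 to 44.1, and peribronchial fibroblasts from 13.4 to 42.6, again with overlap. Alveolar fibroblasts held little Il33, at 0.870 to 1.65 in the p16-DTR-labelled libraries and 1.74 to 2.76 in the controls (log2 fold change -0.90, SE 0.276, edgeR adjusted p = 0.114; DESeq2 adjusted p = 0.0320). The 8 markers of that class itself summed to 6606 to 7320 against 7522 to 7773, also lower without overlap, and the summed alveolar type 2 markers in it ranged from 125.5 to 171 and from 123 to 493.5. The part of either was not tested.

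**Figure D3:**
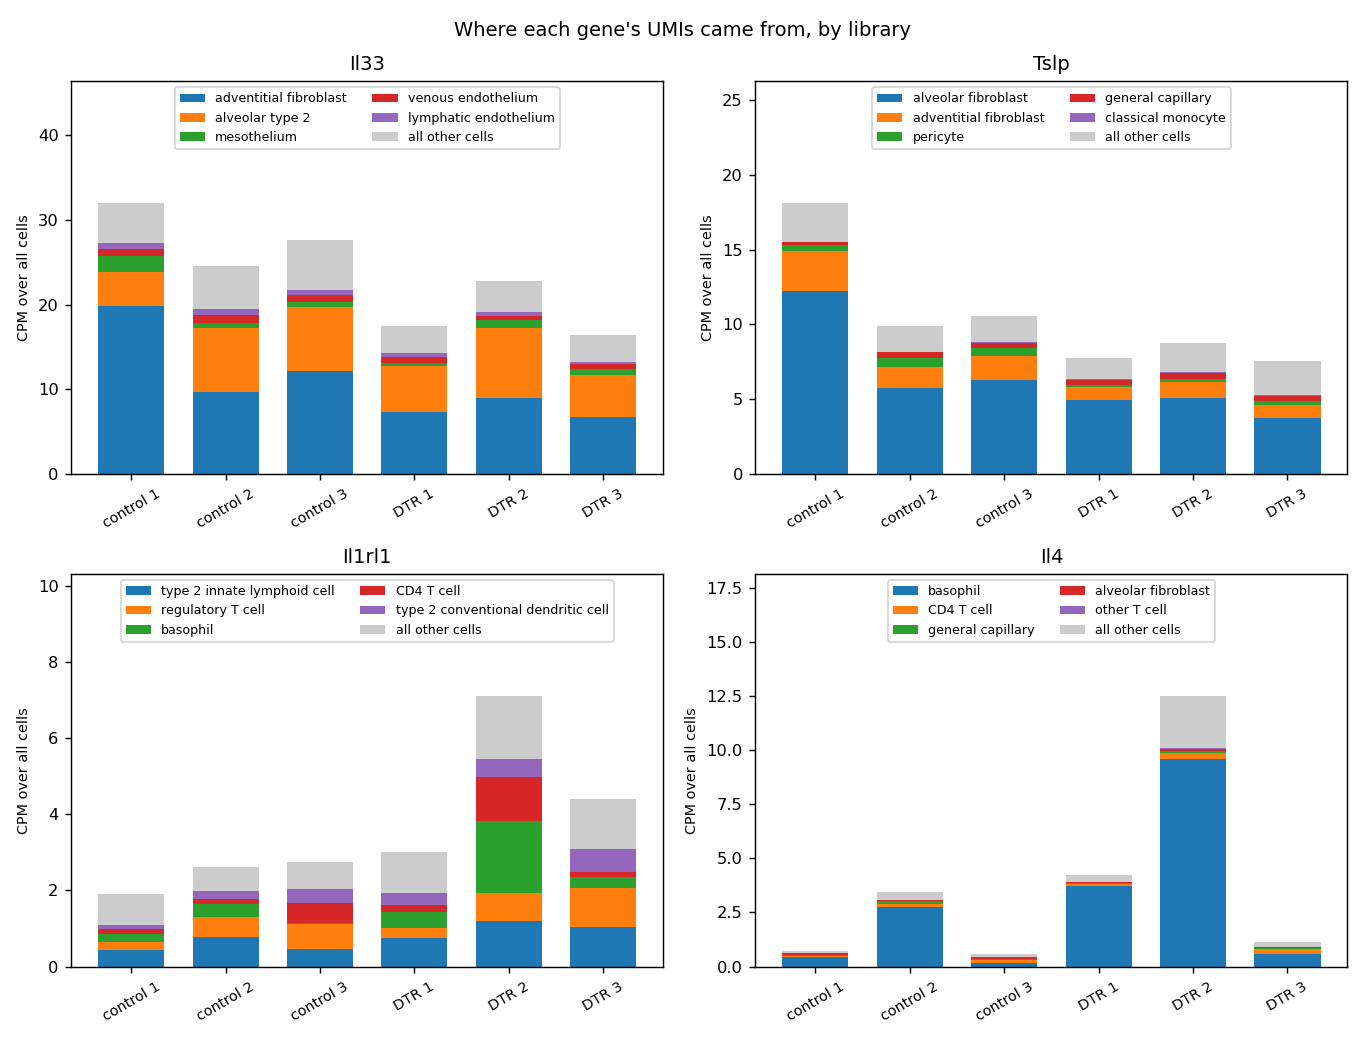
CPM of Il33, Tslp, Il1rl1 and Il4 over all cells in each library, stacked by the class that held them (the 5 classes that supplied most, then all other cells in grey). The adventitial and alveolar fibroblast segments of control replicate 1 stand out for Il33 and Tslp, and the basophil segment of p16-DTR replicate 2 for Il1rl1 and Il4.

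Of the 10 classes in which Il33 was tested, lymphatic endothelium, the lining of the lymph vessels, had the lowest p. Its 209 to 227 cells per p16-DTR-labelled library gave 39.4, 43.0 and 28.5 CPM, from 131, 126 and 99 UMIs. Its 153 to 273 cells per control library gave 58.4, 78.1 and 68.3, from 233, 174 and 191 UMIs. The highest p16-DTR-labelled library was thus below the lowest control, with a log2 fold change of -0.89 (SE 0.167, unadjusted p = 0.000189, edgeR adjusted p = 0.0604).

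Il7 was lower in the same cells, also without a call by edgeR. It lay on chromosome 3 (GRCm38, 7569994 to 7613760, minus strand), and lymphatic endothelium was its leading class, above every other class in every library. It stood at 111.7, 107 and 81.9 in the p16-DTR-labelled libraries and at 148, 159.8 and 153 in the controls. The 3 controls lay close together and the groups did not overlap (log2 fold change -0.62, SE 0.119, unadjusted p = 0.000212, edgeR adjusted p = 0.0604).

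Both genes therefore sat just outside the 0.05 threshold, in a class where 0.167% of 11352 genes were called. There, 2 of the 3 members tested had groups that did not overlap, against 17.8% of all genes, and the same 2 of 3 had an unadjusted p under 0.05, against 12.9%. The class was taken up for its low Il33 p, so these counts depend on that choice and carry no test. Over all classes, 21.4% of member and class pairs did not overlap, against 17.8% of all tests. Without p16-DTR replicate 1 both were called (adjusted p = 0.0300 for Il33 and 0.0153 for Il7), and without each of the other libraries neither was. DESeq2 called both, with adjusted p = 0.00206 and 0.00312, as did edgeR with no filter on low counts (3.08e-07 and 1.42e-05). Over all class tests DESeq2 called more genes than the filtered edgeR fit, 1.98% against 0.432%. The shares that these 2 alternatives called in lymphatic endothelium are not given here.

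The summed level of the 8 adventitial fibroblast markers in the lymphatic class was also lower in the p16-DTR-labelled libraries, at 13.2 to 31.8 against 38.1 to 48.7 CPM. These sums were 0.110% to 0.344% of the level in adventitial fibroblasts themselves, and Il33 in the lymphatic class was 16.9% to 43.5% of its level there. Summed alveolar type 2 markers were 0.101% to 0.159% of their own class's level, and Il33 was 8.99% to 23.6% of it. The part of RNA from these cells in the lymphatic difference was not tested. The 7 markers of the lymphatic class itself summed to 26991 to 31470 in the p16-DTR-labelled libraries and 30076 to 33848 in the controls, with overlap. Cdkn2a had no UMI in the lymphatic cells of the 3 control libraries and 4.81, 5.80 and 5.46 CPM in those labelled p16-DTR (edgeR adjusted p = 0.0289). That rested on 16, 17 and 19 UMIs and was called in 1 of 6 edgeR fits with 1 library left out (adjusted p up to 0.106).

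**Figure D4:**
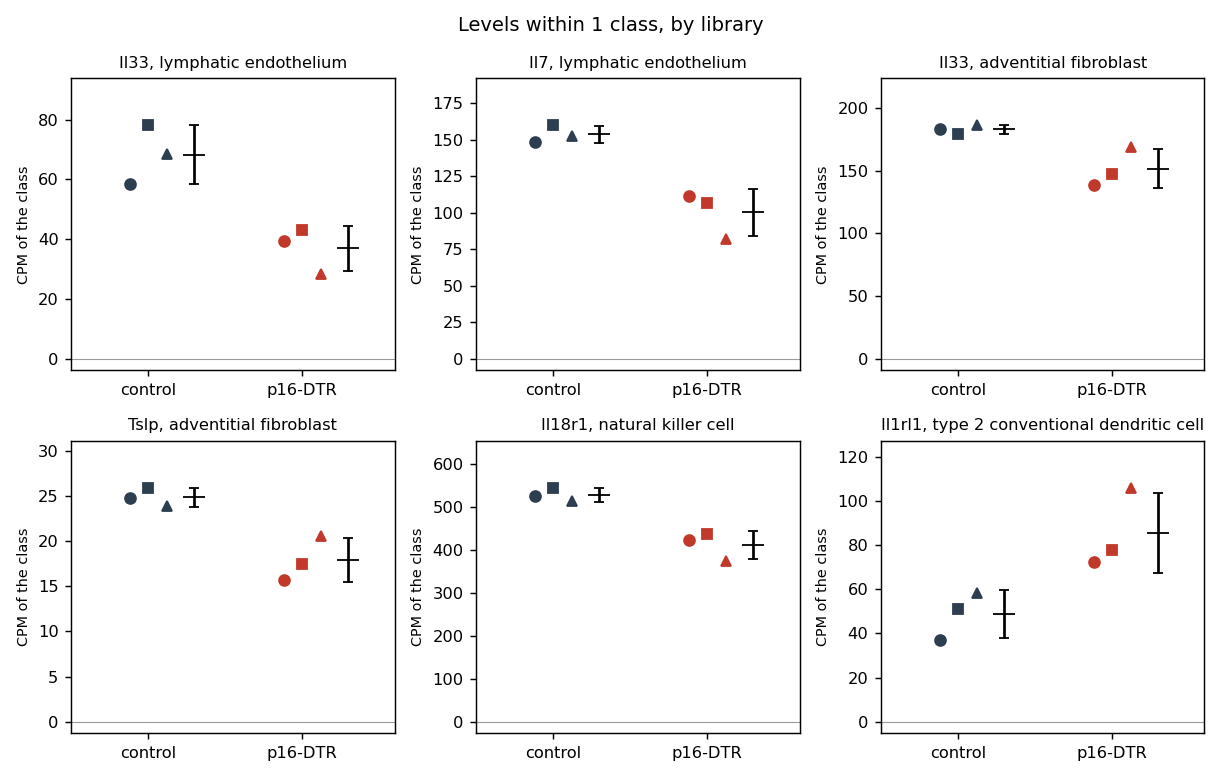
CPM of a class for 6 member and class pairs described in the text whose groups do not overlap, with 1 point per library and the mean ± SD of 3 libraries. Il33 and Il7 in lymphatic endothelium, Il33 and Tslp in adventitial fibroblasts and Il18r1 in natural killer cells lie lower in the p16-DTR-labelled libraries, and Il1rl1 in type 2 conventional dendritic cells lies higher; none passed the adjusted threshold in the filtered edgeR fit, DESeq2 called the first 2, Tslp in adventitial fibroblasts and Il18r1 in natural killer cells, and edgeR with no filter on low counts called all but Il33 in adventitial fibroblasts.

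Outside the lymphatics Il7 was spread at a low level over stromal and epithelial classes, with 12.8 to 55.0 CPM in mesothelium, 8.70 to 17.2 in adventitial fibroblasts, 8.43 to 12.96 in alveolar type 2 cells and 7.99 to 13.02 in ciliated cells. Alveolar fibroblasts held 28.6% of its 11804 UMIs at 7.19 to 9.51 CPM, with no difference between groups beyond the spread (log2 fold change 0.03, SE 0.139, edgeR adjusted p = 0.935). In general capillary cells the direction was opposite to that in the lymphatics. There Il7 stood at 4.19, 4.03 and 3.62 against 3.06, 3.43 and 2.47 (log2 fold change 0.45, SE 0.154, edgeR adjusted p = 0.149). The difference between the 2 endothelial classes was not tested. Il7 was also higher without overlap in mesothelium, at 55.0, 27.7 and 31.1 against 26.6, 23.1 and 12.8 (0.84, edgeR adjusted p = 0.934). In CD8 T cells it was higher at 3.94, 7.23 and 3.20 against 1.30, 2.36 and 2.39, from 6 to 62 UMIs per library (1.203, edgeR adjusted p = 0.426), and in ciliated cells at 12.8, 13.02 and 11.7 against 7.99, 11.4 and 9.09 (0.41, edgeR adjusted p = 0.609). None of these was called. Over all cells Il7 overlapped between groups, at 5.30 to 6.77 against 5.93 to 8.26 (log2 fold change -0.19, edgeR adjusted p = 0.473).

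Tslp, an IL-7-like alarmin, overlapped a long noncoding gene on the opposite strand. Over all cells it stood at 7.76, 8.73 and 7.54 in the p16-DTR-labelled libraries and at 18.1, 9.86 and 10.6 in the controls. The groups did not overlap, but control replicate 1 was far above the other 2 controls. The log2 fold change was -0.64 (SE 0.244, edgeR adjusted p = 0.196), and it was -0.30 (adjusted p = 0.172) without that library, the largest move that leaving out a single library gave. Alveolar fibroblasts, the interstitial cells of the alveolar wall, held 61.1% of the 19117 Tslp UMIs.

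Pericytes, the mural cells of capillaries, had the highest Tslp level, above every other class in every library. They stood at 45.9, 71.1 and 63.7 in the p16-DTR-labelled libraries and at 75.6, 72.3 and 81.4 in the controls (log2 fold change -0.34, SE 0.161, edgeR adjusted p = 0.551). Pericytes were also fewer there, with 60, 63 and 70 cells against 101, 136 and 136, or 0.749% ± 0.0922 against 1.30% ± 0.365 of gated non-immune cells (exact permutation p = 0.1, the smallest that 3 against 3 allows). Of the 16 non-immune classes, 3 (18.8%) had shares that did not overlap.

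Within adventitial fibroblasts Tslp stood at 15.7, 17.4 and 20.5 in the p16-DTR-labelled libraries and at 24.7, 25.9 and 23.8 in the controls. The groups did not overlap, and the difference missed the threshold (log2 fold change -0.47, SE 0.104, edgeR adjusted p = 0.0932; DESeq2 adjusted p = 0.0174). Alveolar fibroblasts gave 22.6, 27.8 and 23.5 against 38.3, 27.5 and 29.2, where p16-DTR replicate 2 lay just above control replicate 2 (log2 fold change -0.34, SE 0.129, edgeR adjusted p = 0.174). The lower sum of that class's own markers, given above, applies here too, and its part was not tested. The alarmins Il33 and Tslp thus both stood lower in adventitial fibroblasts of all 3 libraries labelled p16-DTR; the class's own markers summed lower there too, as given for Il33, and their part was not tested. Of the pair edgeR called neither, DESeq2 called Tslp only, and edgeR with no filter on low counts also called Tslp (adjusted p = 0.0440).

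Il1rl1 encodes ST2, the IL-33 receptor, on chromosome 1 (GRCm38, 40429570 to 40465415, plus strand). Type 2 innate lymphoid cells, tissue-resident lymphocytes that make type 2 cytokines without an antigen receptor, led all classes in every library. They were gated without Il1rl1, and 90 of 94 such cells held an Il1rl1 UMI. Their level was 919, 940 and 966 CPM in the p16-DTR-labelled libraries and 1290, 1283 and 850 in the controls, with overlap (exact permutation p = 0.4). This class had 11 to 22 cells per library and entered no edgeR fit.

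Below them came regulatory T cells (105.7 to 307), basophils (44.8 to 263) and type 2 conventional dendritic cells (37.2 to 106), the antigen-presenting cells that prime CD4 T cells. Neighbouring classes in this order overlapped in their ranges. In type 2 conventional dendritic cells Il1rl1 stood at 72.5, 78.0 and 106 in the p16-DTR-labelled libraries and at 37.2, 50.9 and 58.3 in the controls. The groups did not overlap (log2 fold change 0.85, SE 0.208, unadjusted p = 0.00191), but the edgeR adjusted p was 0.406. With no filter on low counts it was 0.00141, and DESeq2 gave 0.240. The classes rested on 35, 60 and 47 cells against 29, 34 and 55, and 113 of the 260 cells left the class when 1 more marker was needed. Summed markers of innate lymphoid cells in this class ranged from 29.0 to 95.9 against 73.3 to 178, and those of regulatory T cells from 19.5 to 66.1 against 26.3 to 171.

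Over all cells Il1rl1 stood at 3.01, 7.11 and 4.39 in the p16-DTR-labelled libraries and at 1.90, 2.62 and 2.74 in the controls. All 3 were above the controls (log2 fold change 1.05, SE 0.316, edgeR adjusted p = 0.151; DESeq2 adjusted p = 0.0169). No single class carried the gap. Innate lymphoid cells supplied 1.00 ± 0.221 against 0.553 ± 0.194 of a library's CPM, basophils 0.867 ± 0.897 against 0.189 ± 0.163, and CD4 T cells 0.486 ± 0.572 against 0.265 ± 0.237. The high value of p16-DTR replicate 2 came with 1.90 from basophils and 1.15 from CD4 T cells, where the other 2 libraries of its group gave at most 0.416 and 0.183. Without that library the log2 fold change over all cells was 0.67 (edgeR adjusted p = 0.245).

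The classes that bear ST2 were also counted. Type 2 innate lymphoid cells numbered 17, 22 and 22 in the p16-DTR-labelled libraries and 11 in each control library. They made up 0.459% ± 0.0421 (SD, n = 3) against 0.317% ± 0.0360 of gated immune cells, and every p16-DTR-labelled library was above every control (exact two-sided permutation p = 0.1, the smallest possible). Of the 19 immune classes, 2 had shares that did not overlap; the other was the B cell, at 17.6% ± 1.98 against 25.6% ± 0.122 of the same total, and its part in the higher share was not tested. Of all retained cells, type 2 innate lymphoid cells were 0.135% ± 0.0170 against 0.0727% ± 0.0103, again with no overlap. By this measure 6 of 37 cell groups (16.2%), with ungated cells and cells of more than 1 lineage among them, had shares that did not overlap. The part of the larger immune share in this difference was not tested. Basophils numbered 99, 115 and 58 against 46, 60 and 10, or 2.11% ± 0.836 against 1.17% ± 0.848 of gated immune cells, with overlap (exact permutation p = 0.3). Regulatory T cells numbered 35, 37 and 65 against 27, 23 and 42, which as a share of gated immune cells overlapped (exact permutation p = 0.5).

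Il7r, the receptor chain shared by IL-7 and TSLP, lay on chromosome 15 (GRCm38, 9505788 to 9530176, minus strand). CD4 T cells held 35.3% and CD8 T cells 28.3% of its 196575 UMIs. Gamma-delta T cells had the highest level, at 1981 to 2327 CPM, ahead of innate lymphoid cells (1221 to 1982) and CD4 T cells (1428 to 1907), and neighbours in this order overlapped. Over all cells Il7r stood at 106, 124 and 160.2 in the p16-DTR-labelled libraries and at 64.4, 83.7 and 121 in the controls, with overlap. The log2 fold change was 0.59 (edgeR adjusted p = 0.216).

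The edgeR test called Il7r in no T cell class. In CD4 T cells it stood at 1907, 1514 and 1611 against 1428, 1573 and 1550 (log2 fold change 0.12, SE 0.096, edgeR adjusted p = 0.625). In CD8 T cells it stood at 1403, 1020 and 1334 against 1114, 1160 and 1123 (0.15, SE 0.126, adjusted p = 0.788), and in gamma-delta T cells the log2 fold change was 0.05 (SE 0.087). In regulatory T cells the groups overlapped (-0.21, SE 0.140). In T cells gated to none of these classes Il7r was higher without overlap, at 1645, 1351 and 1384 against 1253, 1086 and 1192 (0.30, SE 0.116, unadjusted p = 0.0286, edgeR adjusted p = 0.595). CD8 T cells numbered 301, 468 and 675 against 228, 184 and 497, and they supplied 39.8 ± 17.2 against 22.05 ± 11.8 of a library's Il7r CPM; the part of cell number in the difference over all cells was not tested. In basophils, which entered no edgeR fit, Il7r was 396 ± 25.1 against 277 ± 54.1 with no overlap (exact permutation p = 0.1). In the same cells summed neutrophil markers were higher (307 to 481 against 179 to 302) and summed innate lymphoid markers lower (247 to 334 against 387 to 727), and their part was not tested.

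Il18r1, the IL-18 receptor chain, is the direct neighbour of Il1rl1 on chromosome 1 (GRCm38, 40465552 to 40500854, plus strand), with 36.0 kb between their starts. Gamma-delta T cells led at 887 to 1170, above every other class in every library, followed by CD4 T cells (557 to 798), alveolar type 1 cells and basophils (459 to 693). Despite the shared locus, innate lymphoid cells, which lead for Il1rl1, had Il18r1 at 0 to 196, and alveolar type 1 cells, the flat gas-exchange epithelium, had no Il1rl1 UMI in 263 cells, which allows up to 0.560 CPM (3 counts over the 6 libraries, counting error only). Over all cells Il18r1 stood at 54.5, 59.3 and 70.6 against 46.6, 59.6 and 70.9 and did not separate the groups (log2 fold change 0.11, edgeR adjusted p = 0.683), with a sign that turned to -0.03 without control replicate 1.

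In natural killer cells Il18r1 stood at 423, 437.6 and 374 in the p16-DTR-labelled libraries and at 527, 545 and 514 in the controls. The groups did not overlap (log2 fold change -0.37, SE 0.083, edgeR adjusted p = 0.0783, or 0.00262 with no filter on low counts; DESeq2 adjusted p = 0.0133). The 8 natural killer markers summed to 13434 to 15182 against 11329 to 13143, which was the opposite order. In alveolar type 2 cells it was 110.6, 134 and 102 against 155, 138 and 141 (log2 fold change -0.26, SE 0.102, edgeR adjusted p = 0.348). In CD4 T cells (-0.21) and CD8 T cells (0.26) the groups overlapped.

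In peribronchial fibroblasts, which surround the airways, almost no lymphoid receptor RNA was found. Il7r had 6, 2 and 2 UMIs in the p16-DTR-labelled libraries and 3, 0 and 3 in the controls, and Il18r1 had 2, 1 and 1 against 0, 2 and 0. Neither passed the filter on low counts in this class, so no difference was tested.

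The effector cytokines Il4, Il13 and Il5 lie in the type 2 cytokine cluster on chromosome 11. The starts of Il4 and Il13 are 16033 bases apart with no protein-coding gene between them, and Il13 and Il5 are 86.1 kb apart with 1 between them. The 250 bases before each start are shown because the 3 genes share this cluster but differ in leading class, basophils for Il4 and Il13 and innate lymphoid cells for Il5, both of which depend on GATA factors (RefSeq, GRCm38.p6; Il4 chr11:53618666-53618915, minus strand; Il13 chr11:53634703-53634952, minus strand; Il5 chr11:53720544-53720793, plus strand). Capitals mark matches, on either strand, to GATA-type hexamers: AGATAA or AGATAG as one pair, and TGATAA or TGATAG as the other pair.
Il4: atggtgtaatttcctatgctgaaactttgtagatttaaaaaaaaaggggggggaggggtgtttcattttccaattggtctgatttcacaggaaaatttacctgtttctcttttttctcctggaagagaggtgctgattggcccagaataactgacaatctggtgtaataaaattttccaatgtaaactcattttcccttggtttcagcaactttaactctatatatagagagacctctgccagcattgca
Il13: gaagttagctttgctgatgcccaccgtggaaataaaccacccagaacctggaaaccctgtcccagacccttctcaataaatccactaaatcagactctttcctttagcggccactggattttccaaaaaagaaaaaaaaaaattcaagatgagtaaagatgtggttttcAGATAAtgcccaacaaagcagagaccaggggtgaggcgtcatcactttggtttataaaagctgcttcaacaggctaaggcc
Il5: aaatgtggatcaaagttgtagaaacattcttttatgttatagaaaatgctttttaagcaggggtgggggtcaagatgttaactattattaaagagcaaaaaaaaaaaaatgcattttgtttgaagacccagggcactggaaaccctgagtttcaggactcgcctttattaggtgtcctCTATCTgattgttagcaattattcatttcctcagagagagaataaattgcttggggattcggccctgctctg
Il13 held AGATAA starting 81 bases before its start, and Il5 held AGATAG on the opposite strand starting 72 bases before. No match was in the Il4 window, whose RefSeq start is 4 bases from the GENCODE start. Of 32851 such windows in the table, 26.5% held at least 1 match, so a match alone sets none of these genes apart.

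Il4, the cytokine of class switching and T helper 2 fate, had its highest level in basophils, rare granulocytes. They held 75.8% of its 6548 UMIs over the 6 libraries together, of which p16-DTR replicate 2 alone gave 3698, and by library they held 1056 of 1198, 2832 of 3698 and 174 of 348 in the p16-DTR-labelled libraries and 155 of 251, 701 of 868 and 48 of 185 in the controls. Their level was above every other class in every library. It stood at 748.5, 1324 and 215 CPM in the p16-DTR-labelled libraries and at 272, 843 and 307 in the controls. Libraries of both groups were high and low, and the groups overlapped (exact permutation p = 0.7). CD4 T cells stood at 2.26 to 9.35 CPM and held 4.08% of the pooled UMIs, but 63 of 348 in p16-DTR replicate 3 and 51 of 185 in control replicate 3, where they held more than basophils. Cells that met more than 1 lineage panel held 750 UMIs, 623 of them in p16-DTR replicate 2.

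Over all cells Il4 stood at 4.22, 12.5 and 1.16 in the p16-DTR-labelled libraries and at 0.730, 3.42 and 0.586 in the controls. This spread of over 10-fold within the first group left no difference beyond it (log2 fold change 1.96, edgeR adjusted p = 0.283). Without p16-DTR replicate 2 the value was 0.83, and without control replicate 2 it was 3.22 (edgeR adjusted p = 0.634 and 0.178). The library with the highest Il4, p16-DTR replicate 2, also had the most basophils and the highest summed basophil markers in them (17031 against 7390 to 11427 in the other 5).

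Il13, which drives mucus and airway responses, had 548 UMIs in all. Over all cells it stood at 0.494, 0.768 and 0.0864 CPM in the p16-DTR-labelled libraries and at 0.145, 0.276 and 0.111 in the controls, with overlap (log2 fold change 1.40, edgeR adjusted p = 0.298; 0.77 without p16-DTR replicate 2). Basophils held 70.3% of the pooled UMIs, 188 of the 385 from p16-DTR replicate 2, but 9 of 26 in p16-DTR replicate 3 and 10 of 35 in control replicate 3, where CD4 T cells held 14. Their level was 63.1, 87.9 and 11.1 against 54.4, 69.8 and 64.0 CPM, with overlap (exact permutation p = 0.8). Type 2 innate lymphoid cells held 37 UMIs, and 34 of these came from 3 cells of p16-DTR replicate 1. The other libraries had 2 and 0 in that group and 0, 1 and 0 in the controls. Basophils and innate lymphoid cells had fewer than 20 cells in at least 1 library and entered no edgeR fit. In the classes that did, Il13 did not pass the filter on low counts. Its class values are therefore descriptions only.

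Il5, the eosinophil cytokine, had 363 UMIs over 91156 cells, the fewest of the 9. Over all cells it stood at 0.169 to 0.201 CPM in the p16-DTR-labelled libraries and at 0.180 to 0.252 in the controls (log2 fold change -0.25, edgeR adjusted p = 0.474). General capillary cells held 100 of the UMIs and alveolar fibroblasts 90, at 0.0626 to 0.416 CPM over both classes. In alveolar fibroblasts Il5 stood at 0.177, 0.130 and 0.0626 against 0.291, 0.416 and 0.221 CPM, lower without overlap (log2 fold change -1.22, SE 0.424, unadjusted p = 0.0205, edgeR adjusted p = 0.144), from 3 to 32 UMIs per library. The level of Il5 led in type 2 innate lymphoid cells, which held 32 UMIs, with 14, 5 and 8 UMIs in the p16-DTR-labelled libraries and 4, 1 and 0 in the controls, or 59.5, 13.3 and 24.5 against 34.9, 6.51 and 0 CPM. The groups overlapped (exact permutation p = 0.4), and a count of 0 in the 11 cells of a control library says little at this depth. The 32 UMIs were in 12 of 94 cells (12.8%). The 14 of p16-DTR replicate 1 were in 2 cells, and only 1 of these held more than 1 UMI. General capillary cells, which should lack the gene, had a UMI in 98 of 22165 cells (0.442%), at medians of 14695.5 to 15844 UMIs per cell against 10648 to 16505.5 in the innate lymphoid cells. Basophils had no Il5 UMI in 388 cells, which by the same limit allows up to 0.507 CPM.

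**Figure D5:**
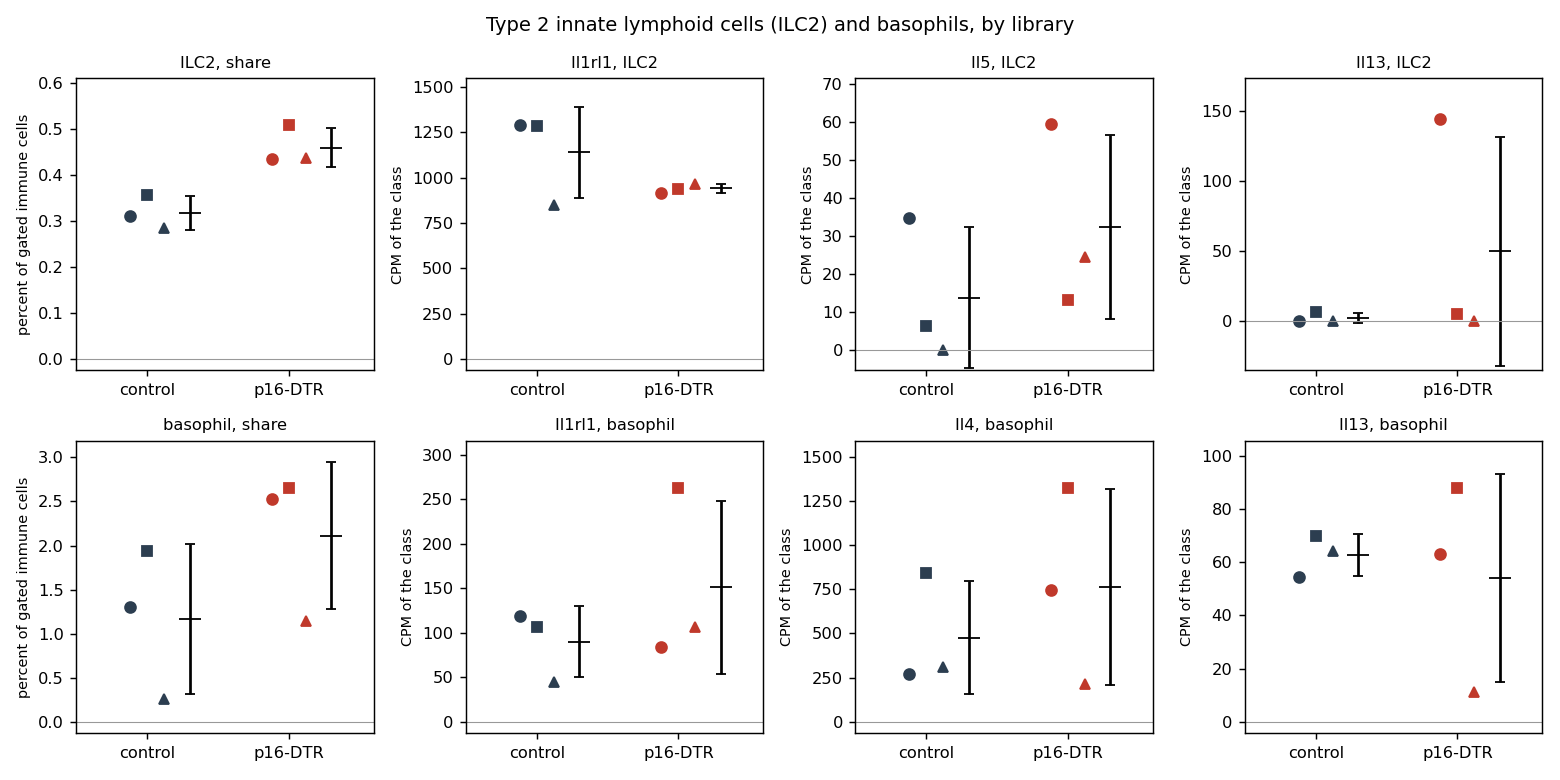
Shares of type 2 innate lymphoid cells (ILC2) and basophils among gated immune cells, and levels of the type 2 genes within them, with 1 point per library and the mean ± SD of 3 libraries. The ILC2 share is higher in every p16-DTR-labelled library than in every control; all the levels overlap, and 1 library carries the Il13 value in ILC2.

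Across the 27 classes with at least 20 cells in every library, 84 member and class pairs passed the filter on low counts: 21 for Il18r1, 17 for Il7r, 13 for Il7, 10 each for Il33 and Il1rl1, 8 for Tslp, 3 for Il4, 2 for Il5 and 0 for Il13. The edgeR test with its filter called none of them, against 0.432% of all gene and class tests. At an unadjusted p under 0.05 there were 15 (6 higher and 9 lower), or 17.9% against 12.1% of all tests. DESeq2 called 5, all lower, against 1.98% of its tests. In 18 pairs (7 higher and 11 lower) the groups did not overlap, or 21.4% against 17.8% of all tests. Basophils and type 2 innate lymphoid cells, the leading classes of Il4, Il13, Il5 and Il1rl1, were not among the 27 classes.

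The other genes of the axis were read from 4 lists with 56 genes. None of the 52 tested over all cells was called. Receptor subunits and decoys had a median log2 fold change of 0.33 over all cells, against -0.01 for all genes tested, with 8 of 14 higher and 1 of 14 lower at an unadjusted p under 0.05, where 23.3% of all genes stood in either direction. Other cytokines of the axis had a median of 0.32 (2 of 8 higher), type 2 target genes 0.20 (5 of 14 higher, 3 lower) and signalling genes and transcription factors 0.12 (5 of 16 higher, 1 lower). Within classes the receptor median ran from -0.30 in regulatory T cells to 0.19 in type 2 conventional dendritic cells. That of type 2 target genes ran from -0.92 in ciliated cells (3 genes) to 0.43 in classical monocytes (9 genes). Over the 4 lists 6 genes are also gate markers, among them the target gene Chil3, a marker of classical monocytes. Class tests of target genes gave 0 higher and 4 lower calls of 133, where 0.432% of all gene and class tests were called. All 4 were of Socs1 or Socs3, given below, and no other target gene was called in a class. The part of the larger immune share in the shifts over all cells was not tested. Crlf2, the TSLP receptor chain that pairs with Il7r, stood at 49.2, 45.9 and 49.6 over all cells in the p16-DTR-labelled libraries and at 38.2, 41.2 and 39.7 in the controls (log2 fold change 0.33, SE 0.056, edgeR adjusted p = 0.126). Il18rap, the partner of Il18r1, stood at 35.5, 35.8 and 45.8 against 24.6, 22.8 and 32.3 (0.61, adjusted p = 0.136), and Il1rap, the partner of Il1rl1, overlapped (0.07).

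Within classes, 9 of 818 tests of these lists were called by edgeR (against 0.432% of all gene and class tests, 1308 of 302777), 3 higher and 6 lower. These p-values were adjusted within a class. Adjusted over all classes and genes together, Id2 in CD4 T cells (adjusted p = 0.0380) and Socs3 in ciliated cells (0.0344) were still called, and the other 7 were not (0.0536 to 0.0952). Crlf2 was higher in alveolar fibroblasts, the main Tslp class, at 19.5, 18.8 and 19.9 against 13.9, 15.4 and 13.6 CPM (log2 fold change 0.47, SE 0.073, adjusted p = 0.0426). In peribronchial fibroblasts 2 receptor chains moved in opposite directions. Il17ra, shared by the IL-25 and IL-17 receptors, was higher at 46.2, 58.2 and 74.4 against 25.4, 31.9 and 31.9 (1.02, adjusted p = 0.0341), and Il1rap was lower at 76.9, 84.4 and 55.2 against 158.5, 125 and 113 (-0.84, adjusted p = 0.0436).

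In CD4 T cells Id2, a partner of helix-loop-helix factors needed for innate lymphoid cells, was higher at 673, 624 and 644 against 426, 449.8 and 433.5 (0.54, adjusted p = 0.0128). Stat5a, which carries the IL-7 and TSLP signal, was lower there at 63.2, 64.0 and 64.4 against 82.5, 87.6 and 93.7 (-0.49, adjusted p = 0.0214). The cytokine feedback inhibitor Socs1 was lower in general capillary cells at 11.6, 13.9 and 12.4 against 26.9, 20.2 and 28.4 (-0.95, adjusted p = 0.0426) and in venous endothelium at 10.2, 9.75 and 12.1 against 18.2, 21.9 and 23.1 (-0.97, adjusted p = 0.0150). Its relative Socs3 was lower in ciliated cells at 92.3, 132 and 94.9 against 226.5, 199.5 and 189.5 (-0.92, adjusted p = 0.0212) and in natural killer cells at 41.5, 41.3 and 33.8 against 71.0, 57.6 and 85.3 (-0.94, adjusted p = 0.0250). With 1 library left out in turn, Socs1 in venous endothelium was called in 6 of 6 fits and Id2 in 5, and the other 7 in 0 to 2.

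The genes whose level followed each member most closely over the 35 class means of the control libraries are given as a description. For Il13 and Il4 the first was the same gene, Gm47599 (Pearson r = 0.954 and 0.921), followed by Csrp3 (0.937 and 0.900), then Ctsg for Il13 (0.924) and Dnase2b for Il4 (0.885). Il1rl1 was followed by Ccr8 (0.775), a chemokine receptor of T helper 2 and regulatory T cells, Cd200r1 (0.721) and 4930469K13Rik (0.715). Tslp was followed by Wasf3 (0.893), Gm17660 (0.892) and Hif3a (0.885), and Il33 by Prcd (0.793), Dnajb3 (0.785) and Prrg3 (0.784). Il7 was followed by Zfhx4 (0.796), Gm26883 (0.790) and Nhsl1 (0.786), Il7r by Xlr4b (0.941), Jakmip1 (0.932) and Tespa1 (0.929), and Il18r1 by Rnf43 (0.919), Emb (0.860) and Faah (0.858). For Il5 the first 3, Dach2 (0.850), 1700113H08Rik (0.821) and Prox2os (0.818), rest on a member with few UMIs. The class means share libraries and classes, so these values carry no test.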

How the data were processed

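Each lung's deposited matrix gives whole-number UMI counts of genes in barcodes, not normalized, per the file headers and the values. The submitters' processing notes name Cell Ranger 8.0.1 and mm10, and the kit was 10x GEM-X 3' v4 per the labels. Barcodes with at least 300 genes, 500 UMIs and at most 15% mitochondrial UMIs were kept. A marker was present in a cell at 1 UMI or more per 10000, and a class needed 3 or 4 of its markers. T cells needed 4 markers of a general T cell panel and were then split into their classes on fewer markers. These numbers were set after seeing the data, from marker detection and not from the 9 members. Cells meeting several lineage panels were left out of classes in place of a doublet caller, so doublets within a lineage remain. Positions are from GENCODE M21 (GRCm38).

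UMIs were summed per library and class and tested with edgeR 4.0.16 (R 4.3.3; quasi-likelihood, TMM, filterByExpr, Benjamini-Hochberg within a class at 0.05) in classes with at least 20 cells in every library. Standard errors were approximated from the F statistic. Smaller classes and shares used exact two-sided permutation tests over libraries, whose smallest p is 0.1. DESeq2 1.42.0, other scalings, filters, gates and libraries left out were alternatives. The scripts were tested on simulated data. The labels name each mouse's sample without stating separate litters or batches, so p-values measure the spread between these 3 samples per group.

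All 9 members are named. Of the other listed genes, those called over all cells are named, and up to 3 per list and class among those called, and Cdkn2a as the check of the labels. For each member with at least 200 UMIs, the 3 genes with the highest correlation among genes with at least 500 UMIs that are no marker are named. Il1rap, Il18rap and Crlf2 over all cells are named in addition, chosen after their values were seen. Members and lists were chosen with earlier results of these data known. Tslp overlaps a noncoding gene, and Il5 and Il7 an antisense gene, on the opposite strand; whether strand was used in counting is not given in the sources used here.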

Additional observations from a re-analysis of the deposited data

Results flagged for a closer look

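Of the retained cells, 8895 were placed in no class (no class gate met, or a tie between classes) and enter no comparison by class. Among them, Il1rl1 was higher in all 3 p16-DTR-labelled libraries. It stood at 2.26, 5.77 and 4.19 CPM (UMIs per 1000000 UMIs of these cells) (mean 4.08) and at 2.12, 1.27 and 1.41 in the control libraries. These values rest on 294 UMIs in 71 cells. The cells had medians of 2372.5 to 3283 UMIs. The difference has an exact permutation p of 0.1, the smallest that 3 against 3 libraries allow.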

How the results depend on the processing

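Over all cells 0 members were called by edgeR in every fit, and DESeq2 called 2. Of the member and class pairs, 0 were called in the reported fit, 5 with DESeq2, 6 with no filter on low counts, 2 without the 5% of cells with the most UMIs, and 0 to 2 with 1 library left out. Both pairs in the last 2 settings were Il33 and Il7 in lymphatic endothelium. DESeq2 called 1.98% of all gene and class tests. The shares of all tests called with no filter, and without the cells with the most UMIs, are not given here. Those counts of pairs therefore have no background beside them. With the replicate block 0 members and 0 pairs were called, and Il33 in lymphatic endothelium had an adjusted p of 0.0509. Whether the replicate numbers pair the libraries was not settled. Deviations of same-numbered libraries correlated at 0.293 for number 1, -0.046 for number 2 and 0.308 for number 3. Those of libraries with different numbers correlated at -0.382 to 0.084. The libraries numbered 1 and 3 correlated best with their own number, and those numbered 2 did not. Il18r1 over all cells reversed to -0.03 without control replicate 1 and ranged up to 0.25 with another library left out. Of the other log2 fold changes followed under alternatives, 267 kept their direction and side of the threshold and 16 passed it. These counts cover only a part of the 84 pairs. The share of type 2 innate lymphoid cells differed by 0.142 percentage points in the reported setting, and by 0.118 to 0.161 with 1 library left out. Il4, Il5 and Il13 are limited by 363 to 6548 UMIs and by 10 to 115 basophils per library.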
